A study of Mus musculus with 31 samples.

Results

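Regulatory T cells (Tregs) of the lymph nodes were compared with those of the spleen in healthy mice. The comparison takes the 3 lymph node and the 3 spleen libraries of WT animals, 6 of the 31 libraries of the series, chosen by their tissue and genotype labels and paired by the date in the title, since the same 3 dates recur in both organs. Both groups were FVB/N mice of the genotype wt;Cdh1F/F;Trp53F/F: they carried floxed Cdh1 and Trp53 alleles without Cre recombinase and had no tumor. Each of these libraries pooled 3 mice, and 70K sorted cells went into each, except the third lymph node library with 62K. Cells were sorted as live CD45+ CD3+ CD4+ CD8- CD25+ T cells. FOXP3, the factor that defines the lineage, was not part of the gate, so activated CD25+ cells without it could be included. The labels used here give neither the age of the mice nor which lymph nodes of WT mice were taken, and they mention lysis of red cells for lungs and blood only. Libraries of WT lung and WT blood on the same dates helped to estimate the spread and the date terms. KEP mice (K14cre;Cdh1F/F;Trp53F/F, with Cre driven by the epithelial K14 promoter) bore mammary tumors of 225 mm2. Their tumor-draining lymph node and spleen libraries, 3 of each and 1 mouse per library, served as an independent second set of the same organs.

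Tregs restrain other T cells and depend on interleukin-2 (IL-2) and on repeated contact of their antigen receptor with self antigen. They circulate between blood, spleen and lymph nodes. Entry into a lymph node from blood needs the chemokine receptor CCR7 and integrins at specialised venules, whereas cells enter the spleen directly from open blood vessels, and leaving a lymph node depends on sphingosine-1-phosphate receptors. Resting (central) Tregs keep the homing receptors for lymph nodes, and effector Tregs carry receptors for tissues and products such as ICOS.

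Reads per library totalled 8446510 to 10528692 counts in lymph node and 10211727 to 12864755 in spleen. No 2 libraries of a group were duplicates: their counts differed by 4.67 to 16 times the variance expected from sampling. Defining transcripts of the sorted population were abundant in all 6 libraries, in CPM (counts scaled to library size, as a rate per megaread) and listed by replicate. Foxp3 was at 1013, 1233 and 989.6 CPM in lymph node and at 873, 904 and 723 CPM in spleen, and Cd4 at 916, 985 and 1092 CPM against 927, 1019.9 and 1002 CPM. Cd8a, which the gate excluded, was at 0.448, 1.47 and 0.189 CPM in lymph node and 0.75, 0.434 and 0.377 CPM in spleen, too low to be tested. Summed over 10 pan-T genes the level was 5865 to 6644 CPM in lymph node and 6108 to 6476 CPM in spleen, and edgeR, DESeq2 and limma-voom called no member of that list (2 had an unadjusted p under 0.05). Because the samples are bulk RNA, a lower level can mean fewer cells of a type or less RNA per cell, and these cannot be told apart.

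Lymph node Tregs had higher RNA of the antigen-induced factors Egr1 and Egr2, of the costimulatory receptor Icos, of the IL-2 receptor alpha chain Il2ra, and of the glycan-branching enzyme Gcnt1. Spleen Tregs had higher RNA of all 8 GIMAP genes, of the Notch-linked ubiquitin ligases Dtx1 and Dtx4, of the gut-homing receptor Ccr9, and of the type 1 and natural killer (NK) type genes Tbx21, Nkg7 and Ccl5. Of the antigen receptor complex and the AP-1 factors no gene passed the test, and of oxidative phosphorylation 1 did. A gene is termed called when its adjusted p from edgeR's quasi-likelihood test, with the title date as a block and Benjamini-Hochberg adjustment over all 12260 genes tested, was below 0.05. Of these genes, 1596 were called (13%), 830 higher in lymph node (6.77%) and 766 lower (6.25%), and 258 and 226 of them changed at least 2-fold. The 3 lymph node values lay entirely above or below the 3 spleen values for 1453 of the called genes (91.0%), against 27% of all genes tested, and 3076 genes had an unadjusted p under 0.05. The count of called genes rests on all the libraries: it was 979, 1043 and 990 without lymph node replicate 1, lymph node replicate 2 and spleen replicate 2, and 1933 without spleen replicate 3. Over all genes tested the median log2 fold change, lymph node minus spleen, was 0.01.

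**Figure D1:**
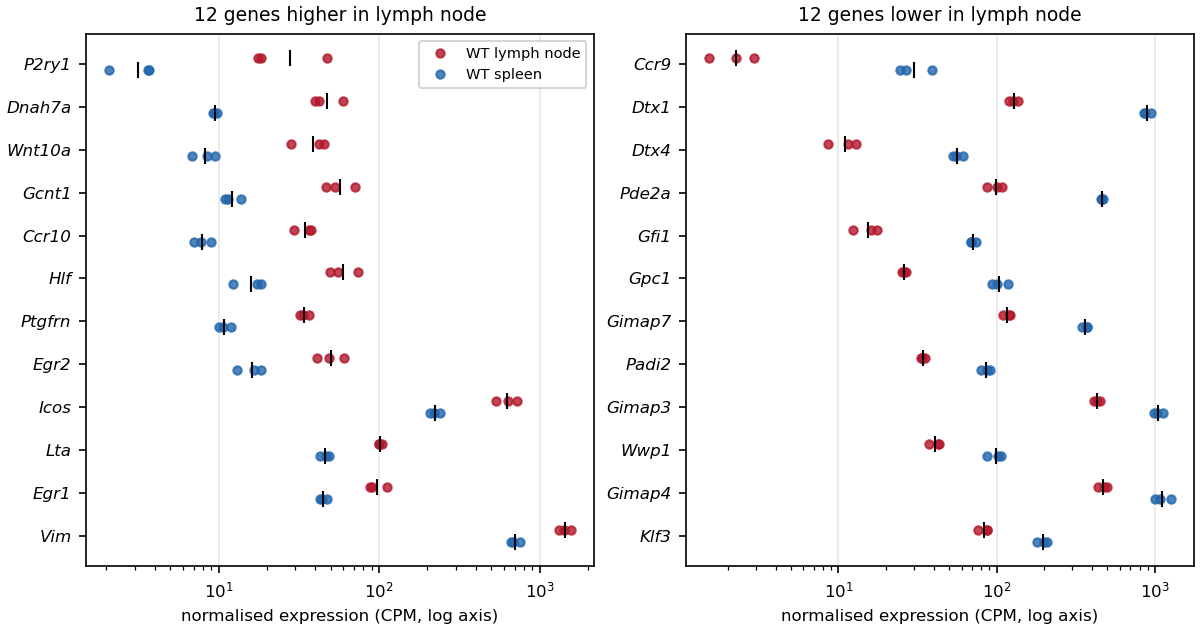
Normalised expression in CPM (log axis) of the 12 higher and the 12 lower genes with the smallest p. Each point is 1 library (red for WT lymph node, blue for WT spleen), and the black tick is the mean of 3. The red and blue points of every gene drawn are separated because the rule that picked these genes required it. Lymph node replicate 1 stands above the other lymph node libraries for P2ry1.

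Among the genes higher in lymph node, the smallest p belonged to Gcnt1, which builds the branched core 2 O-glycans that selectins bind. It was at 71.2, 52.8 and 46.6 CPM in the 3 lymph node libraries and at 13.9, 11.4 and 11 CPM in spleen (log2 fold change 2.22, SE 0.11, edgeR adjusted p = 1.43e-11). The lowest lymph node library was thus more than 3 times the highest spleen library. Icos, a costimulatory receptor of effector and follicular T cells, was at 634, 726 and 533 CPM in lymph node and 208, 220.0 and 239.8 CPM in spleen (log2 fold change 1.49, SE 0.099, edgeR adjusted p = 1.88e-08). Vim, the intermediate filament vimentin and one of the most abundant of these transcripts, was at 1427, 1563 and 1319 CPM against 661, 756 and 684 CPM (log2 fold change 1.04, SE 0.074, edgeR adjusted p = 3.33e-09). Both are leading genes, which were picked with no overlap between the groups as a condition. P2ry1, a receptor for extracellular ADP, was at 47.4, 17.5 and 18.3 CPM in lymph node and 3.66, 2.08 and 3.7 CPM in spleen (log2 fold change 3.04, SE 0.20, edgeR adjusted p = 1.56e-09); lymph node replicate 1 held the highest value and the log2 fold change without it was 2.81. Wnt10a, a secreted Wnt ligand, was at 28.4, 45.1 and 42.4 CPM against 8.44, 9.45 and 6.79 CPM (log2 fold change 2.23, SE 0.17, edgeR adjusted p = 1.48e-08). In lung and blood its mean was 1.35 and 1.45 CPM, so that lymph node held the highest level of the 4 organs. Dnah7a, an axonemal dynein chain, had a similar order, with 47.3 ± 10.7 CPM in lymph node (mean ± SD, n = 3), 9.5 ± 0.269 in spleen, 4.28 ± 0.952 in lung and 4.61 ± 1.47 in blood. Ptgfrn, a membrane protein that associates with tetraspanins, was higher by 1.65 on the log2 scale (edgeR adjusted p = 7.8e-09), and Hlf, a PAR-type leucine zipper factor, by 1.9 (edgeR adjusted p = 2.44e-09). Lta, the cytokine lymphotoxin alpha that lymphoid tissue formation requires, was at 104, 101 and 99.7 CPM in lymph node and at 48.6, 46.5 and 42.6 CPM in spleen (log2 fold change 1.15, SE 0.096, edgeR adjusted p = 3.86e-08).

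Among the 12 leading genes higher in spleen, Dtx1 had the highest level outside the GIMAP family. Deltex proteins are ubiquitin ligases known for their tie to Notch receptors. Dtx1 was at 119.6, 127 and 137 CPM in lymph node and at 864, 946 and 856 CPM in spleen (log2 fold change -2.8, SE 0.11, edgeR adjusted p = 1.52e-11), and its paralog Dtx4 at 12.9, 11.4 and 8.58 CPM against 61.1, 55 and 52.9 CPM (log2 fold change -2.36, SE 0.11, edgeR adjusted p = 1.03e-11). The 2 paralogs differed in the other organs: Dtx1 averaged 209 CPM in lung and 278 CPM in blood, both below spleen, whereas Dtx4 was at 120.2 CPM in lung, above spleen. Pde2a, a phosphodiesterase that degrades cyclic nucleotides, was at 101, 109 and 86.4 CPM in lymph node and 467, 463 and 454 CPM in spleen (log2 fold change -2.23, SE 0.093, edgeR adjusted p = 4.18e-12). Its level in lung (505 CPM) and blood (447 CPM) was near that of spleen, but its exons overlap those of Arap1, so its counts are uncertain. Gfi1, a zinc finger repressor of T cell and myeloid development, was at 16, 12.3 and 17.5 CPM against 74.5, 68.4 and 69.2 CPM (log2 fold change -2.2, SE 0.11, edgeR adjusted p = 1.52e-11). Klf3, a transcriptional repressor of the Kruppel-like family, was at 76.1, 87.3 and 86.5 CPM in lymph node and 179, 199 and 209 CPM in spleen (log2 fold change -1.23, SE 0.068, edgeR adjusted p = 5.25e-11). Separated groups were a condition for picking these 5 genes, so their separation is not a result. Gpc1, a heparan sulfate proteoglycan, was lower in lymph node by -1.99 (edgeR adjusted p = 1.19e-10), Padi2, which converts arginine to citrulline, by -1.32 (edgeR adjusted p = 7.03e-09), and Wwp1, a HECT-type ubiquitin ligase, by -1.26 (edgeR adjusted p = 3.55e-09).

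The GIMAP genes encode small GTPases of lymphocytes that are known for their role in T cell survival, and they lie side by side on chromosome 6. All 8 were tested and all 8 were lower in lymph node, against 6.25% of all genes, with a median log2 fold change of -0.98. The 300-base promoter stretches (250 bases before to 50 after the RefSeq start, GRCm38.p6) of the 3 members with the smallest p are shown because these genes moved together, with any match to the RUNX core letters TGTGGT, read on either strand, in capitals:
Gimap7 (chr6:48718371-48718670, plus strand): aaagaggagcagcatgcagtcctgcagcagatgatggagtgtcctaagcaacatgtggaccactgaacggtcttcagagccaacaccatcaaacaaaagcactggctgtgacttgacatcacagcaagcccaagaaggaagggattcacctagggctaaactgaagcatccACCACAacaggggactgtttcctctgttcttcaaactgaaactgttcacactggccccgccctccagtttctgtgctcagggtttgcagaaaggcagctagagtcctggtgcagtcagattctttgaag
Gimap4 (chr6:48684328-48684627, plus strand): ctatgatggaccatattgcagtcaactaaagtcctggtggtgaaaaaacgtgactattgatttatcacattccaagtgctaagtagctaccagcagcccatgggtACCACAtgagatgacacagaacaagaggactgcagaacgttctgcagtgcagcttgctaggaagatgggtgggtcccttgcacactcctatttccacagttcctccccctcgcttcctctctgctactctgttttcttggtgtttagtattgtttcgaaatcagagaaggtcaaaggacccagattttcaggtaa
Gimap3 (chr6:48770802-48771101, minus strand): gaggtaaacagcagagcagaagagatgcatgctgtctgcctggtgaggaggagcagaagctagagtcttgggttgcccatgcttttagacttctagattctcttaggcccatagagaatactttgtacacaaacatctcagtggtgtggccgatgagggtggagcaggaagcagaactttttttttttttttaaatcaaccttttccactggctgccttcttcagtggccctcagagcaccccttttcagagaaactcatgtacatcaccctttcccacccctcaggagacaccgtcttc
All 8 genes matched the RefSeq table, and 3 of them, Gimap1, Gimap4 and Gimap7, held the letters. They stand in 12.8% of the promoters of 8970 tested genes. In Gimap7 and Gimap4 they begin 79 and 145 bases before the start, on the minus strand; a match describes letters in the window, not a bound site.

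Gimap7 was at 120.2, 109 and 121 CPM in lymph node and 371, 344 and 375 CPM in spleen (log2 fold change -1.63, SE 0.071, edgeR adjusted p = 4.17e-12). Gimap3 was at 432, 414 and 453 CPM against 1119, 1031 and 986 CPM (log2 fold change -1.27, SE 0.072, edgeR adjusted p = 8.77e-11), and Gimap4 at 477, 439 and 498 CPM against 1072, 1006 and 1258 CPM (log2 fold change -1.23, SE 0.078, edgeR adjusted p = 5.3e-10). In each case the lymph node libraries lay close together, and separated groups were a condition of the rule that picked these 3 genes. Gimap6 was lower by -1.0 (edgeR adjusted p = 7.89e-09). The other 4 fall outside the rule for named genes and are given to complete the family: Gimap9 differed by -0.62, Gimap8 by -0.68, Gimap5 by -0.95 and Gimap1 by -0.6. Each had a call and separated groups, as 91.0% of all called genes do. Gimap1 overlaps its antisense gene and is uncertain where counting did not use strand. Across organs the family did not keep 1 order. Gimap7 was as low in lung (104 ± 5.12 CPM, mean ± SD, n = 3) as in lymph node (117 ± 6.52 CPM), with blood between (235 ± 15.3 CPM), whereas Gimap6 in lung (875 ± 76.3 CPM) was near spleen (897 ± 45.5 CPM).

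**Figure D2:**
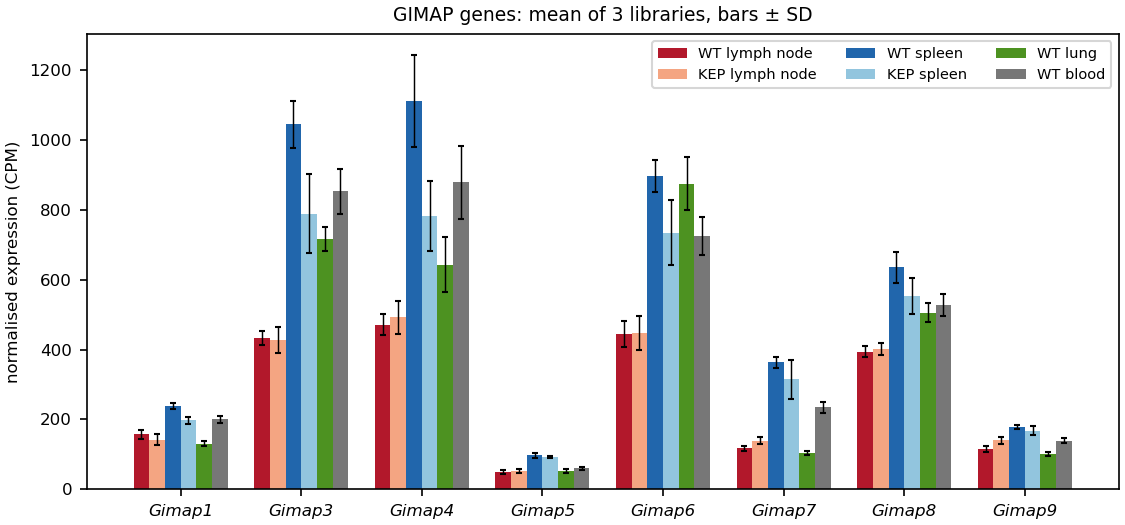
Normalised expression in CPM of the 8 GIMAP genes as the mean of 3 libraries with SD bars, in lymph node and spleen of WT and KEP mice and in WT lung and blood. In WT and in KEP mice alike, the lymph node bar of every gene is below the spleen bar.

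Among 15 receptors and factors of recirculation, 3 were higher and 7 lower in lymph node (median -0.4), where 6.77% of all genes were higher and 6.25% lower. Itga4, the integrin alpha chain that pairs with beta 1 or beta 7, was at 174, 159.7 and 174 CPM in lymph node and 335, 335 and 378 CPM in spleen (log2 fold change -1.04, SE 0.079, edgeR adjusted p = 9.75e-09). P2rx7, a channel opened by extracellular ATP, was at 92.4, 91.5 and 83 CPM in lymph node and 295, 226 and 289.7 CPM in spleen (log2 fold change -1.59, SE 0.14, edgeR adjusted p = 1e-05). The groups were separated for both genes, as for 91.0% of all called genes. Of the 13 integrin chains tested, 3 were higher and 7 lower (median -0.45). Itgae, the CD103 chain that binds E-cadherin, had the largest log2 difference of the 3 chains called higher: 579.8, 654 and 486 CPM in lymph node, 94.5, 105 and 93.3 CPM in spleen (log2 fold change 2.55, SE 0.13, edgeR adjusted p = 1.36e-07), with 307 CPM in lung and 487 CPM in blood. Itgb1 (-0.7, edgeR adjusted p = 6.37e-06) and Itgb3 (-1.13, edgeR adjusted p = 0.00017), the beta chains of receptors for fibronectin and vitronectin, were lower in lymph node.

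Chemokine receptors for tissues split, with 5 of 14 higher and 3 lower, against 6.77% and 6.25% of all genes. Ccr9, whose ligand is made in the small intestine and thymus, was at 1.52, 2.26 and 2.92 CPM in lymph node and 24.6, 26.7 and 39 CPM in spleen (log2 fold change -3.75, SE 0.21, edgeR adjusted p = 5.97e-11). Ccr10, whose ligands are made by skin and mucosal epithelia, was at 37.6, 29.6 and 36.5 CPM against 7.78, 8.93 and 7.01 CPM (log2 fold change 2.12, SE 0.16, edgeR adjusted p = 1.25e-08). So the 2 receptors of epithelial homing moved in opposite directions. Ccr6 was at 159, 125 and 103 CPM in lymph node and 64.9, 63.9 and 55.7 CPM in spleen (log2 fold change 1.06, SE 0.097, edgeR adjusted p = 1.47e-07), and Ccr8, a receptor of skin and tumor Tregs, at 21.5, 27.6 and 18.5 CPM against 8.34, 9.02 and 7.09 CPM (log2 fold change 1.46, SE 0.15, edgeR adjusted p = 8.55e-07). Counts of receptors called higher ran from 3 to 5 when each library in turn was left out.

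**Figure D3:**
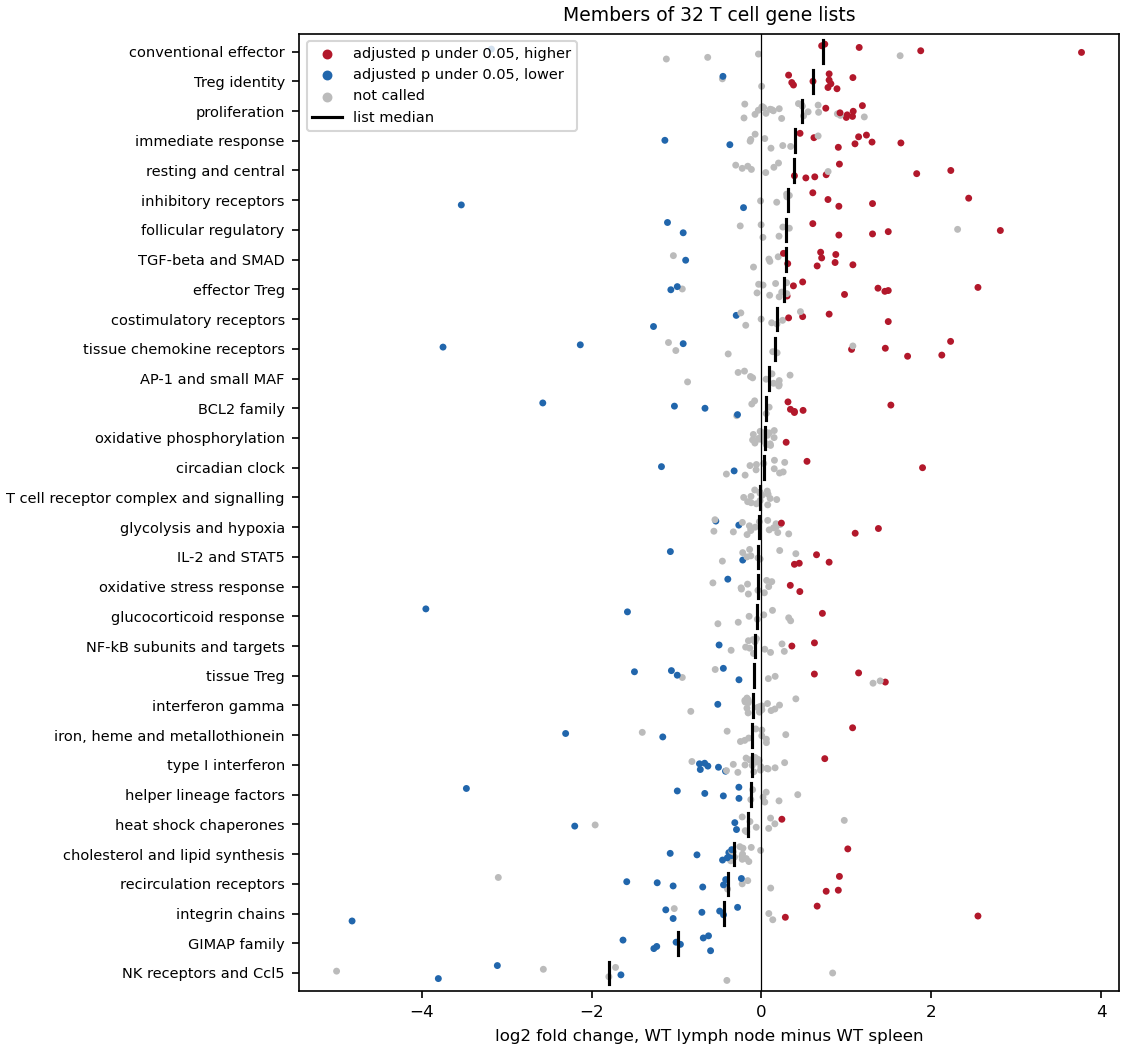
Log2 fold change (WT lymph node minus WT spleen) of each tested member of 32 T cell gene lists, ordered by the list median (black bar). Red and blue points passed the adjusted p threshold and grey points did not; the GIMAP points are all blue, and the antigen receptor points are all grey.

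Transcripts of Treg identity were mostly higher in lymph node. Of 13 tested 10 were higher and 1 lower, against 6.77% and 6.25% of all genes, with a median of 0.61. Il2ra, the CD25 chain that the cells were sorted on, was at 809.9, 943 and 746 CPM in lymph node and 459.5, 517 and 460.3 CPM in spleen (log2 fold change 0.8, SE 0.071, edgeR adjusted p = 9.61e-08). Capg, an actin-capping protein, was at 547, 606 and 546 CPM against 318, 325 and 277 CPM (log2 fold change 0.89, SE 0.076, edgeR adjusted p = 4.84e-08), and Ikzf4, the Ikaros-family partner Eos of FOXP3, at 143, 148 and 135 CPM against 99.4, 102 and 80.2 CPM (log2 fold change 0.61, SE 0.083, edgeR adjusted p = 2.45e-05). Gpr83, a G protein-coupled receptor that Tregs express, was higher by 0.82 (edgeR adjusted p = 0.000121). Foxp3 itself, whose levels stand above, was higher by 0.38 (edgeR adjusted p = 0.00116). That difference was small, with separated groups as in 91.0% of all called genes. Ikzf2, the Helios factor of thymic Tregs, differed by 0.36 (edgeR adjusted p = 0.00337, 0.0709 without the date block). Ctla4, the receptor that strips CD80 and CD86 from other cells, was at 485, 594 and 321 CPM in lymph node and 292, 325 and 193 CPM in spleen. Its groups overlap, and its difference of 0.78 holds within dates (edgeR adjusted p = 0.00646) but not without the date block (0.193), without spleen replicate 1 (0.0556) or without spleen replicate 3 (0.0552).

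Lists of resting and of effector Tregs both held genes higher in lymph node, beside 6.77% of all genes higher and 6.25% lower. Of 15 resting and central genes 7 were higher and 8 not called (median 0.39), and of 20 effector genes 8 were higher, 2 lower and 10 not called (median 0.27). Bach2, a repressor that keeps T cells quiescent, was at 96.1, 97.9 and 116 CPM in lymph node and 63.2, 72.9 and 64.6 CPM in spleen (log2 fold change 0.63, SE 0.11, edgeR adjusted p = 0.000796). Igfbp4, which binds insulin-like growth factors, was at 24, 35.8 and 83.4 CPM against 6.56, 7.29 and 15.6 CPM (log2 fold change 2.23, SE 0.26, edgeR adjusted p = 0.000237); the third pair held the highest value of each organ, and the call was lost without the date block (edgeR adjusted p = 0.0745). Irf4, a factor that antigen receptor signals induce and effector Tregs require, was at 177, 208 and 199 CPM in lymph node and 73.3, 73.6 and 79.6 CPM in spleen (log2 fold change 1.37, SE 0.12, edgeR adjusted p = 8.18e-06). Klrg1, a receptor of terminally differentiated Tregs, was lower, with 43.7, 49.2 and 42.1 CPM against 84.1, 94.3 and 89.9 CPM (log2 fold change -0.99, SE 0.11, edgeR adjusted p = 1.64e-05). Each of these 4 genes had separated groups, as did 91.0% of all called genes. Among 14 genes of tissue Tregs 3 were higher and 5 lower (median -0.09); Plin2, which coats lipid droplets, differed by -1.06 (edgeR adjusted p = 1.73e-05) and Penk, which encodes an opioid peptide precursor, by -1.5 (edgeR adjusted p = 0.000314).

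Inhibitory and costimulatory receptors were called in both directions, beside 6.77% of all genes higher and 6.25% lower. Of 12 inhibitory receptors 5 were higher and 2 lower. Havcr2, which encodes TIM-3, was at 9.76, 14.9 and 10.7 CPM in lymph node and 2.34, 1.82 and 2.26 CPM in spleen (log2 fold change 2.44, SE 0.23, edgeR adjusted p = 2.31e-07). Btla was at 77.8, 73.1 and 73.7 CPM against 37, 37.3 and 45.2 CPM (log2 fold change 0.91, SE 0.11, edgeR adjusted p = 1.11e-05), and Cd200, the ligand of a myeloid inhibitory receptor, at 23.1, 32 and 33 CPM against 7.87, 13.3 and 15 CPM (log2 fold change 1.31, SE 0.16, edgeR adjusted p = 4.78e-06). Lymph node values were the higher ones in each, without overlap, as in 91.0% of all called genes. Tox, a factor of chronically stimulated T cells, was higher by 0.61 (edgeR adjusted p = 2.56e-05). Of 13 costimulatory receptors 4 were higher and 2 lower. Tnfrsf1b, the second TNF receptor, was higher by 0.49 (edgeR adjusted p = 0.000897), and Tnfrsf4, which encodes OX40, by 0.8 (edgeR adjusted p = 0.000543, 0.112 without the date block). Cd226, an activating receptor, was at 58.8, 51.6 and 46 CPM in lymph node and 113, 103 and 166 CPM in spleen (log2 fold change -1.27, SE 0.19, edgeR adjusted p = 0.00258). Of 14 genes of follicular Tregs 5 were higher and 2 lower. The decoy receptor Il1r2 was at 12.2, 17.3 and 11.8 CPM in lymph node and 2.16, 1.39 and 2.19 CPM in spleen (log2 fold change 2.81, SE 0.26, edgeR adjusted p = 1.89e-07). Cxcr5, which draws cells into B cell follicles, was lower by -0.92 (edgeR adjusted p = 1.82e-06), with exons that overlap Bcl9l and hence an uncertain count.

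Immediate response genes, which antigen receptor and stress signals induce within minutes to hours, were more often higher in lymph node. Of 18 tested 8 were higher and 2 lower, against 6.77% and 6.25% of all genes, with a median of 0.4. Egr2, a zinc finger factor that restrains activated T cells, shows the pattern; the stretch of the second of its 5 RefSeq starts is given with a CArG box (the element of serum response factor) in capitals. The overlapping windows of the third to the fifth start share 1 other box, and the first start holds none. Of the first-listed promoters of tested genes 1.28% hold the box, and by that count Egr2 is not among them:
Egr2 (chr10:67537316-67537615, plus strand): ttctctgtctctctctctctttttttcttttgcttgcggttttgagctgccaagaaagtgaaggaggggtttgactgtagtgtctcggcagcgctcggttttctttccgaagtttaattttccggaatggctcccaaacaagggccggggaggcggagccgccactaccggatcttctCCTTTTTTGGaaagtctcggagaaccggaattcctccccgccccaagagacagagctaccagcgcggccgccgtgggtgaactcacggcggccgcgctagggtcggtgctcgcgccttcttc
The box begins 72 bases before that start, and the match describes the letters only. Egr2 was at 41.2, 48.7 and 60.3 CPM in lymph node and 16.7, 13.1 and 18.4 CPM in spleen (log2 fold change 1.64, SE 0.14, edgeR adjusted p = 3.86e-08). Egr1, the founding member of the family, was at 87.5, 90.4 and 111 CPM against 42.7, 44.1 and 47.7 CPM (log2 fold change 1.1, SE 0.091, edgeR adjusted p = 3.54e-08), and Egr3 at 19.3, 23.3 and 31.2 CPM against 9.47, 9.11 and 11.2 CPM (log2 fold change 1.3, SE 0.18, edgeR adjusted p = 2.76e-05). In all 3 the lymph node values were about 2 to 3 times the spleen values, and in blood the means were 7.73 CPM for Egr1, 1.3 CPM for Egr2 and 0.747 CPM for Egr3. In lung they were 306, 31.5 and 13.9 CPM, so that Egr1 had its highest mean of the 4 organs in lung, and Egr2 and Egr3 in lymph node. Myc, which drives growth, was higher by 0.62 (edgeR adjusted p = 3.24e-05). The AP-1 and small MAF list behaved otherwise: of 12 tested none was called by edgeR or limma-voom and 1 by DESeq2, with 5 at an unadjusted p under 0.05, and Jund, the member with the smallest p, was at 209, 239.7 and 229.8 CPM against 184, 200.2 and 155 CPM (log2 fold change 0.34, edgeR adjusted p = 0.0515). None of the 15 genes of the antigen receptor complex and its proximal signalling was called by edgeR, DESeq2 or limma-voom, with 3 at an unadjusted p under 0.05 (median -0.02).

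Among downstream and cytokine pathways, TGF-beta genes had the most calls, beside a share of 13% over all genes. Of 15 NF-kB genes 2 were higher and 1 lower: Rel, the c-Rel subunit needed for Treg development, was at 40.5, 46.9 and 37.2 CPM in lymph node and 25.1, 27.1 and 28.7 CPM in spleen (log2 fold change 0.62, SE 0.11, edgeR adjusted p = 0.000339), while the inhibitor Nfkbie was lower by -0.5 (edgeR adjusted p = 0.000528). Of 15 genes of IL-2 and STAT5 4 were higher and 2 lower. Socs3, an inhibitor of cytokine receptors that STAT3 induces, was at 116, 88.3 and 86.6 CPM in lymph node and 237, 203 and 174 CPM in spleen (log2 fold change -1.07, SE 0.14, edgeR adjusted p = 0.000443). Pim2, a survival kinase, was higher by 0.65 (edgeR adjusted p = 0.000104), and the survival factor Bcl2 by 0.39 (edgeR adjusted p = 0.00116). Of 14 TGF-beta genes tested 8 were higher and 1 lower (median 0.28). The receptor Tgfbr1 was at 136, 152 and 139 CPM in lymph node and 73.8, 71.5 and 88.1 CPM in spleen (log2 fold change 0.88, SE 0.085, edgeR adjusted p = 2.75e-07). The pathway's inhibitors Smad7 (0.71, edgeR adjusted p = 2.79e-06) and Skil (0.87, edgeR adjusted p = 6.82e-06) were higher too. Smad3, the signal transducer, was the member called lower, at 125, 115 and 135 CPM against 229.5, 222 and 248 CPM (log2 fold change -0.89, SE 0.076, edgeR adjusted p = 4.96e-08).

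Several type 1 and NK-type transcripts were higher in spleen. Of 13 helper lineage factors 6 were lower in lymph node and 7 not called, where 6.25% of all genes were lower. The lower ones numbered 3 to 6 when each library in turn was left out. Tbx21, which encodes the type 1 factor T-bet, was at 9.4, 9.04 and 11.5 CPM in lymph node and 108, 81.2 and 145 CPM in spleen (log2 fold change -3.47, SE 0.39, edgeR adjusted p = 0.00165). Stat4, which transmits interleukin-12 signals, was at 38.9, 38.3 and 41.6 CPM against 68.5, 73.8 and 95.6 CPM (log2 fold change -0.99, SE 0.10, edgeR adjusted p = 7.69e-07), and Runx3 was lower by -0.67 (edgeR adjusted p = 6.37e-06). Spleen replicate 3 held the highest Tbx21 and Stat4 values. Zbtb16, which encodes PLZF, the factor of natural killer T cells and other innate-like T cells, was at 4.03, 6.33 and 3.21 CPM in lymph node and 62.5, 57.4 and 89 CPM in spleen (log2 fold change -3.95, SE 0.45, edgeR adjusted p = 0.00191). Of 9 NK receptor and chemokine genes tested 3 were lower in lymph node: Ccl5 was at 3.85, 7.01 and 4.81 CPM against 53, 63.8 and 102 CPM (log2 fold change -3.8, SE 0.61, edgeR adjusted p = 0.00891), Nkg7, a granule protein, at 11, 17 and 11.9 CPM against 99.9, 93.5 and 158 CPM (log2 fold change -3.11, SE 0.59, edgeR adjusted p = 0.0184), and Klrb1c, the NK1.1 receptor, at 34.8, 23.6 and 23.8 CPM against 66.1, 76.8 and 119 CPM (log2 fold change -1.65, SE 0.31, edgeR adjusted p = 0.0159). These 3 have wide gaps and large spread, and the calls depend on single libraries: without lymph node replicate 3 the edgeR adjusted p was 0.0523 for Ccl5, 0.0906 for Nkg7 and 0.0603 for Klrb1c. The differences were of like size without spleen replicate 3, at -3.53 for Tbx21, -3.06 for Nkg7 and -3.93 for Ccl5.

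Marker lists of other lymphocytes shared genes with these lists or split in direction. The 9 CD8 T and NK cell markers summed to 66.5 to 71.3 CPM in lymph node and 211 to 332 CPM in spleen. They include Nkg7 and Klrb1c given above, so the sum is not separate from those genes. Without Nkg7 it was 56.6 to 63.9 CPM and 116 to 180 CPM, with Klrb1c still included. Of 6 tested 3 were lower, Nkg7 and Klrb1c among them, where 6.25% of all genes were. That number fell to 0 without lymph node replicate 3 or spleen replicate 2. Cd8a was near 0 in both organs, and Gzma was at 0 in lymph node. The 7 gamma delta T cell markers in the file summed to 13.5 to 51.7 CPM in lymph node and 51.7 to 64.3 CPM in spleen, and they split. Tcrg-C4, a gamma chain constant segment, was at 1.34, 2.15 and 0.66 CPM against 12, 14.1 and 21.5 CPM (log2 fold change -3.56, SE 0.57, edgeR adjusted p = 0.00458), and Tcrg-C2 at 2.24, 2.26 and 2.36 CPM against 20.2, 20.6 and 26 CPM (log2 fold change -3.31, SE 0.61, edgeR adjusted p = 0.0135). Near-identical gamma segments make the split of reads between them uncertain. Cd163l1, a scavenger receptor of gamma delta cells that can make interleukin-17, went the other way, with 22.1, 22.3 and 3.77 CPM in lymph node and 0.0937, 0 and 0.453 CPM in spleen (log2 fold change 6.05, SE 0.85, edgeR adjusted p = 0.00144). Lymph node replicate 3 was far below the other 2 lymph node libraries for this gene. The part of other lymphocytes in the type 1 and NK-type differences was not tested.

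Effector cytokines of conventional T cells were low or moderate. Of 10 tested 5 were higher in lymph node and 1 lower, against 6.77% and 6.25% of all genes. Tnf was at 54.9, 65.1 and 62.3 CPM in lymph node and 37.8, 37.6 and 36.4 CPM in spleen (log2 fold change 0.71, SE 0.098, edgeR adjusted p = 2.74e-05), and Tnfsf8, the ligand of CD30, at 156, 139 and 125 CPM against 86.6, 85 and 78.1 CPM (log2 fold change 0.75, SE 0.097, edgeR adjusted p = 2.02e-05). Il4 was the member called lower, at 1.07, 0.339 and 0.377 CPM against 6, 5.29 and 4.45 CPM (log2 fold change -3.18, SE 0.40, edgeR adjusted p = 9.92e-06). Both directions came without overlap, as did 91.0% of all called genes. In a list of BCL2 family genes plus Fas and Fasl, 6 of 15 were higher and 4 lower, Fasl among the latter. Bcl2l1, which encodes the survival protein BCL-XL, was higher by 0.49 (edgeR adjusted p = 0.00385), and Fasl, the death ligand, was at 8.95, 7.12 and 6.51 CPM in lymph node and 44.6, 40.9 and 49.7 CPM in spleen (log2 fold change -2.57, SE 0.35, edgeR adjusted p = 0.00294).

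Proliferation genes leaned towards lymph node, with 7 of 30 higher, where 6.77% of all genes were, and a median of 0.48. Mki67, a marker of cycling cells, was at 34.5, 44.2 and 30.8 CPM in lymph node and 18.4, 19.9 and 26.4 CPM in spleen (log2 fold change 0.76, SE 0.14, edgeR adjusted p = 0.00188), and Stmn1, which regulates microtubules, at 13.1, 22.9 and 21.7 CPM against 6.09, 6.77 and 12.1 CPM (log2 fold change 1.19, SE 0.18, edgeR adjusted p = 0.000118). Both sets are separated, as are 91.0% of all called genes. The number called ran from 2 to 9 as single libraries were left out, lowest without lymph node replicate 2. Cholesterol and lipid synthesis leaned towards spleen, with 1 of 21 higher and 7 lower (median -0.32), where 6.25% of all genes were lower. As libraries were left out, 2 to 7 were lower. Scd2, a desaturase, was the member called higher, at 101, 135 and 117 CPM in lymph node and 57.6, 56.2 and 61.4 CPM in spleen (log2 fold change 1.02, SE 0.15, edgeR adjusted p = 0.000613). Of 23 glycolysis and hypoxia genes 3 were higher and 2 lower, beside 13% of all genes called in either direction. The glucose transporter Slc2a3 differed by -0.54 (edgeR adjusted p = 2.64e-05) and the first glycolytic enzyme Hk2 by 1.38 (edgeR adjusted p = 0.000347). Tfrc, the transferrin receptor for iron uptake, was at 48.8, 60.3 and 50.3 CPM in lymph node and 23.6, 24.7 and 27 CPM in spleen (log2 fold change 1.07, SE 0.11, edgeR adjusted p = 6.25e-07). In oxidative phosphorylation 1 of 20 was called, Cox5a (0.29, edgeR adjusted p = 0.0411), and that call was lost without any 1 of the 6 libraries.

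Interferon, stress and clock lists held 1 to 7 calls each, for which the share over all genes is 13%. Of 27 type I interferon genes tested 1 was higher and 6 lower, among them the antiviral synthetase Oas1a (-0.73, edgeR adjusted p = 0.000444) and the RNA sensor Ddx58 (-0.42, edgeR adjusted p = 0.00108), and of 20 interferon gamma genes 1 was lower, the factor Irf1 (-0.51, edgeR adjusted p = 0.000404). Heat shock genes gave 1 higher and 3 lower of 14, clock genes 2 and 2 of 15, glucocorticoid response genes 1 and 2 of 11, iron and heme genes 1 and 2 of 14, and oxidative stress genes 2 and 1 of 13. Heat shock protein Hspa1a was near its detection limit, at 0.269, 0.339 and 0.283 CPM in lymph node and 1.97, 0.694 and 1.51 CPM in spleen, where 3 counts stand for 0.233 to 0.355 CPM. Among clock genes Npas2 was called at -1.18 (edgeR adjusted p = 0.011), Cry1 at -0.32 (edgeR adjusted p = 0.0103) and Per3 at 0.54 (edgeR adjusted p = 0.00573), beside Hlf, which the list also holds.

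Transcripts of cells outside the gate were present at different levels. Red cell and platelet genes summed to 8.2 to 11.3 CPM in lymph node and 38.3 to 279 CPM in spleen. Of 11 tested 7 were lower (2 to 7 as libraries were left out), where 6.25% of all genes were. Slc4a1, the red cell anion exchanger, was at 0, 0.113 and 0.0943 CPM against 3.37, 1.91 and 1.13 CPM, and the platelet genes Pf4, Ppbp and Gp9 had no count in lymph node and 2 to 13 counts per spleen library. B cell genes gave 6 of 9 lower; without Ighm, which holds most of the sum, they summed to 14.6 to 21 CPM in lymph node and 27.6 to 60.9 CPM in spleen. Cd79b, the signalling partner of the B cell receptor, was at 9.58, 11.3 and 9.43 CPM against 17.4, 21.7 and 14.7 CPM (log2 fold change -0.82, SE 0.15, edgeR adjusted p = 0.000666). Macrophage and monocyte genes summed to 124 to 166 CPM in lymph node and 169 to 301 CPM in spleen, most of it Ccr2, which is also in the chemokine receptor list. Without Ccr2 the sums were 14.2 to 21.9 CPM and 28.1 to 69 CPM. Among 9 tested edgeR and limma-voom called none and DESeq2 1, with 1 at an unadjusted p under 0.05. Cd14 was at 0 in all 6 libraries. Ly6c2 was at 3.58, 4.97 and 5 CPM in lymph node and 12.9, 16.4 and 57.4 CPM in spleen, highest in spleen replicate 3 (edgeR adjusted p = 0.0519). Red pulp macrophage genes were at 72.1 to 99.3 CPM and 58.2 to 66.1 CPM, most of it Axl, which was higher in lymph node by 0.69 (edgeR adjusted p = 3.17e-05). Without Axl the order was reversed, with sums of 5.03 to 6.3 CPM in lymph node and 13.4 to 17.3 CPM in spleen. Hmox1, the heme-degrading enzyme of that list, was at 3.85, 4.97 and 4.24 CPM against 10.6, 9.71 and 8.75 CPM (log2 fold change -1.16, SE 0.24, edgeR adjusted p = 0.00204). Vcam1 differed by -1.65 (edgeR adjusted p = 0.0389), and Vsig4 was at 0 in all 6 libraries. Of the 5 plasma cell genes tested Derl3 (2.96, edgeR adjusted p = 0.000129) and Sdc1 (2.37, edgeR adjusted p = 1.11e-05) were higher and Mzb1 (-1.93, edgeR adjusted p = 0.0394) lower, all at low levels, and the Mzb1 call was lost without any of 5 of the 6 libraries. Mammary genes summed to 16.2 to 23.4 CPM in lymph node and 9.28 to 11.7 CPM in spleen. In that list the E-cadherin gene Cdh1 was the member called higher, at 8.51, 5.2 and 2.55 CPM against 0.562, 0.694 and 1.28 CPM (log2 fold change 2.62, SE 0.46, edgeR adjusted p = 0.000749). The summed neutrophil genes were at 5.75 to 9.61 CPM in lymph node and 9.19 to 15.5 CPM in spleen, most of it Mmp9. Without Mmp9 they were at 0.197 to 0.71 CPM and 0.0777 to 0.294 CPM. Stromal genes were at 3.87 to 6.8 CPM and 2.44 to 3.73 CPM, and fat cell genes at 0.627 to 0.904 CPM and 0.603 to 1.65 CPM. The part of these cells in the other differences was not tested.

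**Figure D4:**
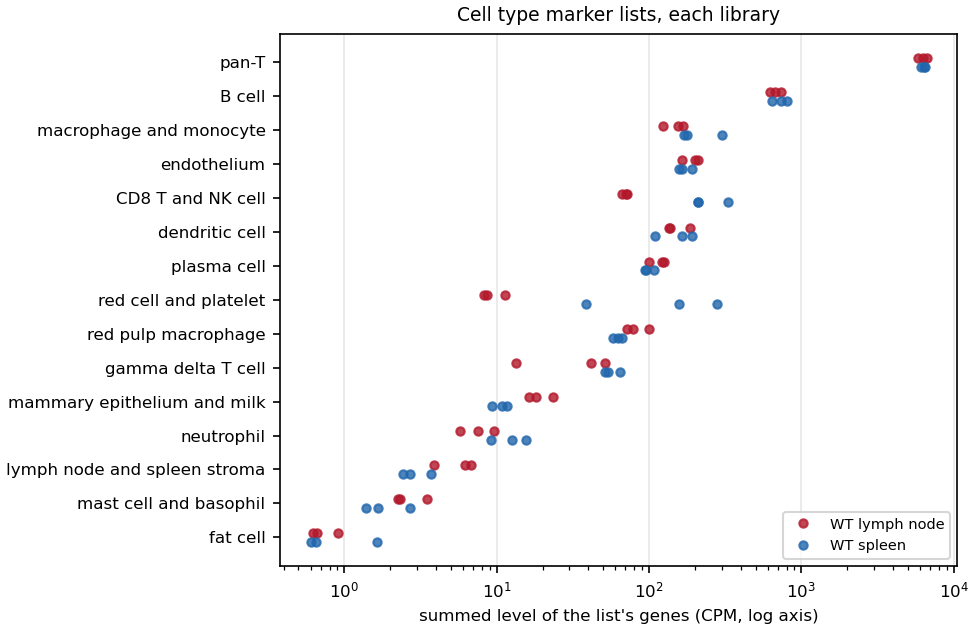
Summed level in CPM (log axis) of each of 15 cell type marker lists in each library, red for WT lymph node and blue for WT spleen. The red points lie left of the blue points for red cells and platelets, CD8 T and NK cells, macrophages and monocytes and, narrowly, gamma delta T cells. They lie right of the blue points for the red pulp macrophage, stromal and mammary lists, and the pan-T points of both colours overlap.

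The same organs in tumor-bearing KEP mice gave an independent set, since no library is shared. Of 12332 genes tested there 2648 were called (21.5%), 1299 higher in lymph node (10.5%) and 1349 lower (10.9%). Of the genes called in WT mice, 1578 were tested in KEP mice and 1480 of them (93.8%) had the same sign. Called in the same direction in both were 1064 genes, 504 higher and 560 lower, which is 66.7% of the WT calls and 40.2% of the KEP calls, and 11 were called in opposite directions. Without the date block in both fits 569 were called the same way. Genes called in WT had a median absolute log2 fold change of 0.59, and in KEP mice their median in the WT direction was 0.44. The genes were selected by their WT values, so a smaller KEP median is partly built in. All 8 GIMAP genes were lower again, and Dtx1 (-2.34, edgeR adjusted p = 5.12e-05), Gfi1 (-2.01, edgeR adjusted p = 6.03e-07), Klf3 (-1.31, edgeR adjusted p = 1.39e-07) and Ccr9 (-3.05, edgeR adjusted p = 0.000304) were lower in KEP lymph node too. Icos (1.21, edgeR adjusted p = 6.46e-07), Egr2 (1.48, edgeR adjusted p = 6.67e-06), Il2ra (0.84, edgeR adjusted p = 4.92e-06) and Wnt10a (2.8, edgeR adjusted p = 7.83e-07) were higher. Foxp3 differed by -0.06 (edgeR adjusted p = 0.66) and Ikzf2 by -0.03 (edgeR adjusted p = 0.897) in KEP mice, so neither was called there. Proliferation genes gave 1 of 30 called higher, where 10.5% of all genes were, against 7 in WT, with list medians of 0.36 in KEP and 0.48 in WT. The difference between genotypes was not called for Mki67 (-0.55, edgeR adjusted p = 0.819) or Stmn1 (-0.36, edgeR adjusted p = 0.981).

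**Figure D5:**
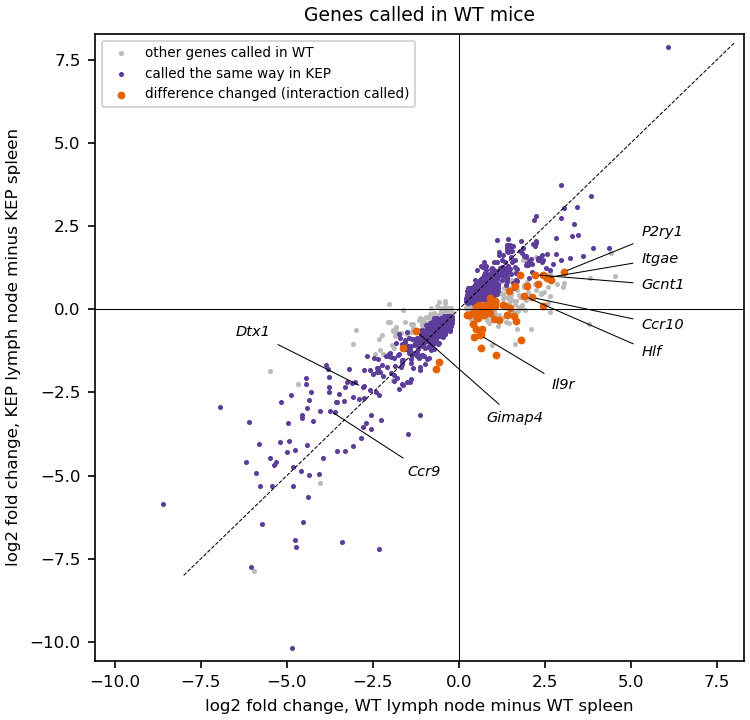
Log2 fold change of lymph node minus spleen in KEP mice (vertical) against WT mice (horizontal) for the 1578 genes called in WT and tested in both; the dashed line marks equal differences. Purple genes were called the same way in KEP mice, grey genes were not, and the 59 orange genes passed the test that the difference itself differs between genotypes.

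The test of that difference between genotypes, run on 12825 genes in 24 libraries, called 74 genes (0.577%), of which 72 had a lower value of lymph node minus spleen in KEP mice (0.561%) and 2 a higher one (0.0156%). Of the 74, 59 were also called in WT, 55 of them as higher in WT lymph node. Both tests use the same WT libraries, so this overlap is partly built in. Gcnt1 had the smallest p among the named genes: it was at 56.8 ± 12.8 CPM in WT lymph node (mean ± SD, n = 3) and 12.1 ± 1.54 in WT spleen, and at 69.3 ± 9.52 in KEP lymph node and 33.5 ± 2.6 in KEP spleen (interaction -1.18, SE 0.14, edgeR adjusted p = 3.78e-05). The 2 lymph node means differed by less than the larger of their SDs, and KEP spleen was above WT spleen. Itgae showed 573 ± 84.4 CPM and 97.7 ± 6.71 CPM in WT lymph node and spleen, and 790.3 ± 81.8 CPM and 412 ± 40.8 CPM in KEP (interaction -1.6, SE 0.22, edgeR adjusted p = 0.00186). Il9r, the interleukin-9 receptor, falls outside the rule for named genes and was chosen after its values were seen because its sign turned: it was at 83.5 ± 3.35 CPM in WT lymph node and 54.6 ± 3.66 CPM in WT spleen, but at 71.9 ± 11.9 CPM in KEP lymph node and 123 ± 20.4 CPM in KEP spleen (interaction -1.39, SE 0.12, edgeR adjusted p = 2.41e-07). Gimap4 and Gimap7 were the 2 genes with a higher, that is less negative, value in KEP mice (interaction 0.58, edgeR adjusted p = 0.00742, and 0.47, edgeR adjusted p = 0.0351). Without the date block the test called 16 genes; Gcnt1, Itgae, Vim and Hlf stayed below the threshold there, while the other 7 named genes called with it (Ccr10, Capg, P2ry1, Sgk1, Ccr6, Gimap4 and Gimap7) did not. The Gimap7 call was lost when any of 11 of the 12 libraries of these 4 groups was left out, all but KEP lymph node replicate 3.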

How the data were processed

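RNA of sorted CD25+ CD4+ T cells was sequenced as 65-base single reads from stranded mRNA libraries, per the labels' protocols. The authors deposited 1 table of raw read counts per gene for 31 libraries; TopHat2 2.1.0, HTSeq and the build GRCm38 are named in the submitters' processing notes, and the annotation release and the strand setting of the counting are not given in the sources used here. Genes whose exons overlap another gene are therefore marked uncertain. From the deposited counts, edgeR 4.0.16 (TMM factors, filterByExpr minimum count 10, robust quasi-likelihood fit, R 4.3.3) was fitted to the 12 WT libraries of lymph node, spleen, lung and blood with title date as a block, to the 12 KEP libraries likewise, and to all 24 for the difference between genotypes, with Benjamini-Hochberg adjustment over all genes tested. WT mammary gland and tumor libraries were left out. The pairing by date comes from the titles. Deviations of same-date lymph node and spleen libraries from their group means correlated at 0.29, 0.13 and 0.12, and those of different dates at -0.17 to 0.06. Deviations cancel out within each group, so positive same-date values push the different-date values down. CPM values use TMM factors of the 24 libraries. Marker sums given without their most abundant gene, and the levels of 3 counts, use library totals without these factors. Each WT library pools 3 mice and each KEP library comes from 1 mouse. Whether same-date libraries share mice, and whether mice were raised or handled together, is not stated.

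Genes named are the 12 higher and 12 lower with the smallest p among called genes that changed 2-fold or more, reached 5 CPM on average in the higher organ and had no overlap between groups, leaving out marker genes, receptor segments and clone names; up to 4 called members of each list; and 7 identity genes. Some genes that the rule names are not reported here. The members and lists were chosen with earlier results of these data known. Lists are described by counts and medians, without a set test. Promoter stretches come from RefSeq (GRCm38.p6). The WT fit was tried on simulated counts with 200 genes changed and 12042 tested, a smaller share than the 13% called in the data. The simulated spread came from the fit's own dispersion estimates. The fit recovered 73.7% of log2 changes of 1 and 54.5% of those of 0.5, with 8 false calls, and these rates may differ in the data. A gene not called can therefore still differ. Alternatives were other library sets, RLE and upper-quartile factors, other filters, DESeq2 1.42.0, limma-voom (limma 3.58.1), a minimum change of 1.5-fold, no block, and each library left out. Floors of 3 counts cover counting error only. Each SE is derived from the log2 fold change and the quasi-likelihood F statistic, which takes in the spread between libraries.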

Additional observations from a re-analysis of the deposited data

Results flagged for a closer look

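For 11 named genes the difference between lymph node and spleen itself differed between KEP and WT mice in the test of that difference (edgeR, 24 libraries, adjusted over 12825 genes). Values are KEP minus WT on the log2 scale. Most named genes were picked by their WT differences, and the same WT libraries enter this test. The genes called higher in WT lymph node whose difference was lower in KEP mice were Gcnt1 (-1.18, edgeR adjusted p = 3.78e-05), Hlf (-1.49, 0.000493), Vim (-0.78, 0.00132), Itgae (-1.6, 0.00186), Ccr10 (-1.76, 0.00186), Capg (-0.55, 0.00742), P2ry1 (-1.9, 0.00742), Sgk1 (-0.88, 0.0121) and Ccr6 (-0.85, 0.0124). Gimap4 (0.58, 0.00742) and Gimap7 (0.47, 0.0351), called lower in WT lymph node, differed less in KEP mice. With single libraries left out, the call for Sgk1 was lost without WT spleen replicate 1 (edgeR adjusted p = 0.0679), and that for Ccr6 without WT spleen replicate 1 (0.0768), WT spleen replicate 3 (0.0624) or KEP spleen replicate 3 (0.0579). The calls for Gcnt1, Hlf, Vim, Itgae, Ccr10, Capg, P2ry1 and Gimap4 held in all 12 such fits, and that for Gimap7 was lost in 11 of them. Without the date block the adjusted p was 0.186 for Ccr10, 0.0979 for Capg, 0.933 for P2ry1, 0.609 for Sgk1, 0.56 for Ccr6, 0.608 for Gimap4 and 1 for Gimap7, so that these 7 calls were lost, and the calls for Gcnt1, Hlf, Vim and Itgae were kept. KEP and WT libraries differ in the number of mice pooled, in dates and in the lymph nodes stated as well as in genotype and tumor, and these cannot be told apart.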

How the results depend on the processing

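Leaving out each WT library in turn gave 979 to 1933 called genes (521 to 994 higher, 456 to 939 lower). With all 31 libraries and no replicate block the fit called 297 genes, 142 higher and 155 lower, and with a minimum change of 1.5-fold it called 314, 160 higher and 154 lower. Without the replicate block, that is without the pairing by date, 1092 genes were called (560 higher, 532 lower), of which 1086 were also called with it. Other factors, filters, library sets, DESeq2 and limma-voom gave 1260 to 2091. In KEP mice the count of called genes was 1353 without the replicate block and 1523 to 2072 with single libraries left out. The test between genotypes called 16 genes without the block and 47 to 92 with single libraries left out, lowest without WT spleen replicate 1 and KEP spleen replicate 3. Genes called the same way in WT and KEP, an alternative added after seeing the data, numbered 569 without the block. Of 145 named genes compared, 15 lost their call without the block, 97 with all 31 libraries and 63 at a minimum change of 1.5-fold. Cd4, not called at 0.02, changed sign to -0.03 without WT lymph node replicate 3 and to -0.01 without WT spleen replicate 3, within a range of -0.029 to 0.052 as single libraries were left out. Each group has 3 libraries, genes near 3 counts per library carry little information, and the lymph nodes sampled in WT mice are not named. The causes of these changes were not tested.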

Other observations

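Genes outside the lists above were looked up after the values were seen and are given as values. Art2b, an ADP-ribosyltransferase that modifies the P2X7 channel on T cells, was lower in lymph node, as was P2rx7. It was at 1.07, 0.678 and 1.32 CPM in lymph node and 20.6, 18.7 and 33.1 CPM in spleen (log2 fold change -4.56, SE 0.37, edgeR adjusted p = 2.5e-06), and in KEP mice it differed by -3.27 (edgeR adjusted p = 3.45e-08). Of the Notch pathway beyond the Deltex genes, the 3 genes looked up were not called. Notch1 was at 358, 357 and 363 CPM in lymph node and 380.2, 335 and 328 CPM in spleen (log2 fold change 0.05, edgeR adjusted p = 0.757), Notch2 at 173, 163 and 167 CPM against 185, 183 and 178 CPM (-0.11, edgeR adjusted p = 0.484), and Nrarp, a Notch target, at 5.37, 5.65 and 4.53 CPM against 3.56, 3.12 and 3.54 CPM (0.61, edgeR adjusted p = 0.12). Besides Gcnt1, 2 other glycosyltransferases looked up were higher in lymph node. Fut7, which completes selectin ligands, was at 12.5, 11 and 12.2 CPM against 5.81, 6.59 and 6.03 CPM (log2 fold change 0.95, SE 0.21, edgeR adjusted p = 0.00444), and St6gal1 at 475, 536 and 557 CPM against 364, 426 and 403 CPM (log2 fold change 0.4, SE 0.069, edgeR adjusted p = 0.000404).

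Some cytokine receptors had large differences in either direction. Il23r was at 7.7, 6.22 and 4.53 CPM in lymph node and 0.469, 1.3 and 1.51 CPM in spleen (log2 fold change 2.41, SE 0.36, edgeR adjusted p = 7.89e-05), and Il17re at 17.7, 6.78 and 5.19 CPM against 2.34, 2.26 and 1.21 CPM (log2 fold change 2.25, SE 0.41, edgeR adjusted p = 0.00231). Il12rb2, the signalling chain of the interleukin-12 receptor, was at 1.07, 0.339 and 0.943 CPM in lymph node and 27.6, 26 and 45 CPM in spleen (log2 fold change -5.31, SE 1.16, edgeR adjusted p = 0.0308), and the chemokine Xcl1 at 0.448, 0.226 and 0.283 CPM against 17.5, 12.1 and 26.1 CPM (log2 fold change -5.78, SE 0.67, edgeR adjusted p = 0.000498). Of the markers given above, Cd163l1 was higher in lymph node and Tcrg-C2, Tcrg-C4, Nkg7 and Klrb1c lower, and their part was not tested. Of the potassium channel genes, Kcna2 was at 17.6, 12.8 and 13.9 CPM in lymph node and 2.44, 1.91 and 3.7 CPM in spleen (log2 fold change 2.45, SE 0.24, edgeR adjusted p = 4.19e-07), and Kcnq5 at 8.95, 12.1 and 11.1 CPM against 25.8, 21 and 28.7 CPM (log2 fold change -1.23, SE 0.14, edgeR adjusted p = 3.06e-06).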
